A study of Arabidopsis thaliana with 21 samples.

Results

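This comparison asked which Arabidopsis transcripts the natural auxin indole-3-acetic acid (IAA) still changed within 1 h when a compound named only A was present. It set the 3 arrays of seedlings given 5 µM IAA together with 10 µM A against the 4 arrays of seedlings given 10 µM A alone, 7 of the 21 arrays of the study, across all 22746 probe sets that are not manufacturer controls. The title of the series speaks of inhibitors of auxin transcriptional activation found in a chemical screen. All seedlings were the Col-0 accession by the deposited experiment files, grown for 7 days in the light in liquid culture and treated for 1 h. Total RNA of whole seedlings was hybridised to ATH1 arrays.

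The other arrays held the solvent DMSO (n = 4), 5 µM IAA (n = 4), compound B at 10 µM (n = 3) and 5 µM IAA with 10 µM B (n = 3). No label states that replicate arrays stem from separate cultures, so p-values measure the spread between these arrays, which may be technical. In RNA of whole seedlings, fewer responding cells and less RNA per cell cannot be told apart. Values are log2 signals, 1 per probe set and array, and every difference below is between means of log2 signals, with its standard error (SE). Adjusted p-values are from limma with the Benjamini-Hochberg adjustment over all 22746 probe sets, and a probe set passed the test at an adjusted p under 0.05.

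Several arrays stood apart. The deposited experiment file of 1 array, the one labelled IAA replicate 2, describes a treatment with B instead. Its GH3.3 signal was 13.31, against 12.79 to 13.23 in the other IAA arrays and 8.45 to 8.65 in B, and its GRX480 signal was 5.18, against 10.26 to 10.66 in B. IAA arrays 1 and 2 both lay above IAA arrays 3 and 4 for 124 of the 128 probe sets that IAA alone raised at least 2-fold, and for 20.7% of all probe sets. Array 3 of IAA with A lay apart from arrays 1 and 2 for a group of genes given below, and array 2 of A had the largest score on the leading component of within-group deviations, -36.0. The median SD of a probe set was 0.14 in A and 0.09 in IAA with A. The root marker PYK10, a beta-glucosidase of the root, lay between 13.28 and 13.49 in the 7 arrays, and the shoot marker RCA, Rubisco activase, between 13.07 and 13.33, so both organs were represented. None of the 5 root markers and the 1 shoot marker that the probe table names passed limma's test, and 0 of the 6 had an unadjusted p under 0.05.

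Auxin acts in the nucleus by joining an F-box receptor to an Aux/IAA repressor, which is then ubiquitinated and degraded. This frees the ARF transcription factors, which switch on early genes within minutes. These include the Aux/IAA genes themselves, the GH3 enzymes that conjugate excess IAA to amino acids, and the SAUR genes tied to cell expansion. In roots, LBD factors act downstream of ARFs in the founding of lateral roots.

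IAA still changed 189 probe sets when A was present, 0.831% of those tested. Of these, 172 rose, 0.756%, and 17 fell, 0.0747%. At least 2-fold changes were all rises, 94 in number. The 4 largest rises among named genes belonged to a GH3 enzyme, an Aux/IAA repressor, an HD-ZIP factor and a SAUR gene. A pairing with 1 gene was given for 75 of the 189 probe sets, 62 higher and 13 lower. The other 114 are counted but not named, with differences from -0.93 to 4.78 and a median of 1.14. The values of both groups did not overlap for 187 of the 189 probe sets, against 8.64% of all probe sets. The 189 were chosen by a test on these same arrays, so this follows in large part from the choice.

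GH3.3, WES1 and GH3.1, of the GH3 enzymes, rose with A present. The list holds 11 genes, of which the probe table used here names 5. Genes it does not name are not analysed here, in this list and those below. Of the 5, 3 rose with A present and 3 rose with IAA alone. GH3.3 read 8.15, 8.08, 8.13 and 8.33 in the A arrays and 12.96, 13.01 and 13.00 in IAA with A. No array of either group came near the other. The rise was 4.82 ± 0.13 (SE, n = 4 and 3), or 28.2-fold (adjusted p = 3.55e-15), against 30.1-fold for IAA over DMSO. The difference between both responses was -0.10, with a 95% interval from -0.46 to 0.27.

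The other responding GH3 genes gave smaller values with A. WES1, also known as GH3.5, read 8.33 to 8.90 in A and 10.94 to 11.11 in IAA with A, a rise of 2.37 ± 0.18 (adjusted p = 6.06e-08), against 2.95 with IAA alone. GH3.1 read 4.50 to 4.69 in A and 6.69, 6.97 and 7.20 in IAA with A, a rise of 2.34 ± 0.21 (adjusted p = 5.92e-07), against 3.21 with IAA alone. The IAA arrays of GH3.1 read 7.97, 8.35, 7.09 and 7.29, of which 7.09 lay within the range of IAA with A. For neither gene did the difference between responses pass the test (adjusted p = 0.999 for WES1 and 0.808 for GH3.1). The remaining members, GH3.9 at 0.25 and GH3.17 at 0.08, did not pass with A.

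Among the Aux/IAA repressors, a list of 29 of which 7 are named, 2 of the 7 rose with A and 2 with IAA alone. IAA29 read 5.61, 5.41, 5.54 and 5.06 in A and 9.41, 9.27 and 8.83 in IAA with A. It rose by 3.77 ± 0.23, or 13.6-fold (adjusted p = 3.84e-09), against 13.5-fold without A. IAA30, an Aux/IAA protein that lacks the usual degron, read 5.15 to 5.57 in A and 7.59, 7.01 and 7.36 in IAA with A, a rise of 2.02 ± 0.18 (adjusted p = 6.44e-07), against 1.91 without A. The 95% intervals of the difference between responses ran from -0.65 to 0.67 for IAA29 and from -0.41 to 0.62 for IAA30. The other 5 members had differences with A from 0.05 to 0.49, the highest being IAA20 (adjusted p = 0.144). The list's median was 0.23, against -0.02 over all probe sets.

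Of the 80 SAUR genes listed, 3 are named, and 1 of these rose. AT2G18010, the locus of SAUR10, read 4.26, 4.11, 4.23 and 4.08 in A and 7.23, 7.14 and 7.75 in IAA with A. The rise of 3.21 ± 0.21, or 9.22-fold (adjusted p = 6.48e-09), stood beside 8.99-fold without A, and the difference between responses had an interval from -0.56 to 0.63. AT1G43040 at -0.01 and AT3G53250 at -0.06 did not pass in either setting.

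**Figure D1:**
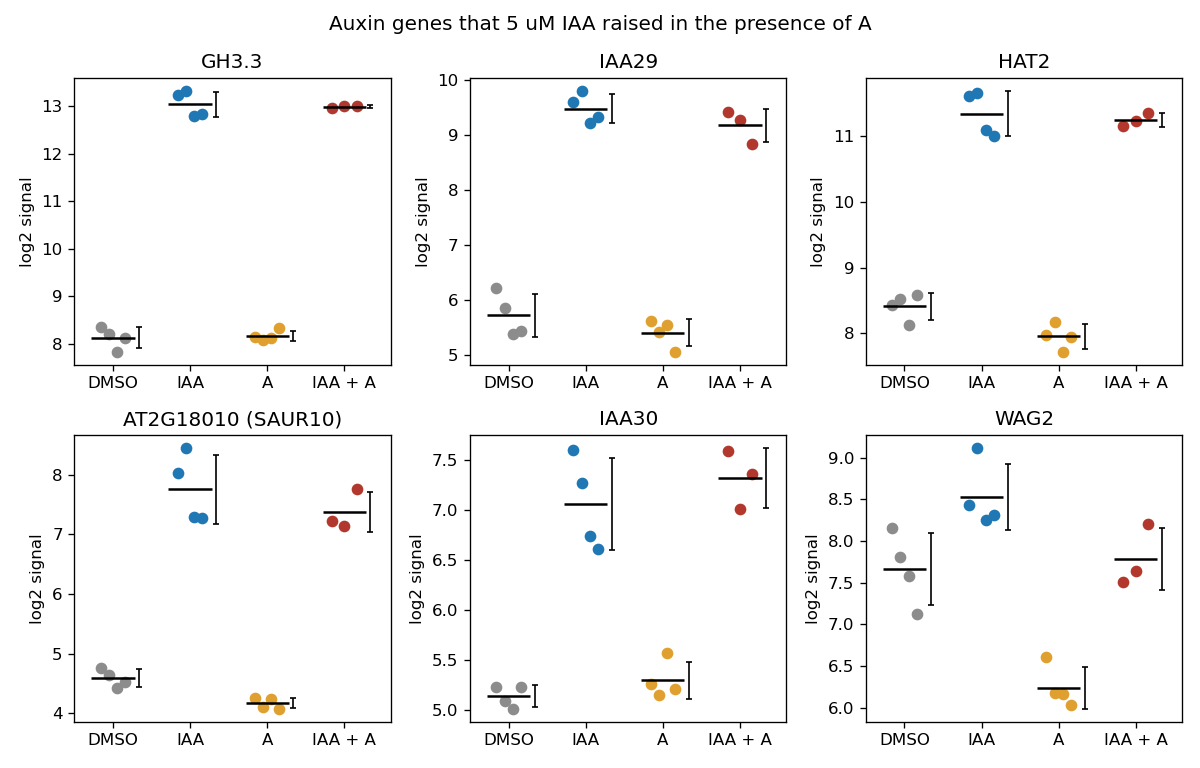
Log2 signal per array of 6 auxin genes in DMSO, IAA, A and IAA with A (points), with the group mean (line) and SD (bar beside it). In all 6 panels the 3 arrays of IAA with A lie above the 4 arrays of A, and for WAG2 both sets of arrays with A sit lower than their counterparts without A in their means.

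HAT2, an HD-ZIP II transcription factor, had the third of these large rises. It read 7.97, 8.18, 7.72 and 7.94 in A and 11.15, 11.23 and 11.36 in IAA with A, a rise of 9.82-fold (SE 0.16 on the log2 scale, adjusted p = 1.62e-10). Without A the rise was 2.93, from DMSO arrays at 8.12 to 8.58. The interval of the difference between responses ran from -0.10 to 0.83.

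LBD29, a transcription factor of lateral root formation, had a smaller response with A. All 3 named members of the 11 listed LBD and HD-ZIP II factors passed the test with A, but LBD29 had the lowest difference of responses of all probe sets tested. LBD29 read 6.16, 5.56, 6.20 and 6.38 in DMSO and 10.65, 10.14, 9.58 and 9.53 in IAA. In A it read 5.71, 5.32, 5.67 and 5.75, and in IAA with A 6.66, 6.64 and 7.15. The arrays of IAA with A lay above every A array and below every IAA array. Its rise of 3.90 with IAA alone stood beside 1.20 ± 0.23 with A, or 2.30-fold (adjusted p = 0.00982). The test of the difference between responses gave -2.70, with an interval from -3.37 to -2.03 (adjusted p = 0.00118), and -2.28 without IAA arrays 1 and 2 (adjusted p = 0.00161). Without array 3 of IAA with A, the remaining rise was 1.03 and did not pass (adjusted p = 0.0807).

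LBD16 and PUCHI, also known from lateral root formation, had smaller values with A too. LBD16 read 6.62 to 6.83 in A and 7.69, 7.76 and 8.09 in IAA with A, a rise of 1.09 ± 0.17 (adjusted p = 0.0013), against 1.86 with IAA alone. The difference of -0.76, with an interval from -1.26 to -0.27, did not pass over all probe sets (adjusted p = 0.764). PUCHI, an AP2/ERF transcription factor of lateral root primordia and the only named gene of the list of 5 other early auxin genes, read 5.48, 5.45, 5.65 and 5.58 in A and 5.39, 5.51 and 5.62 in IAA with A. These groups overlapped, and the difference was -0.03 (adjusted p = 0.986), although IAA alone raised PUCHI by 0.76 (adjusted p = 0.00136). Its difference between responses, -0.79 with an interval from -1.18 to -0.40, did not pass either (adjusted p = 0.258). With IAA in the presence of B, LBD16 rose by 1.90 (adjusted p = 1.83e-06), while PUCHI had 0.30 and did not pass (adjusted p = 0.619).

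**Figure D2:**
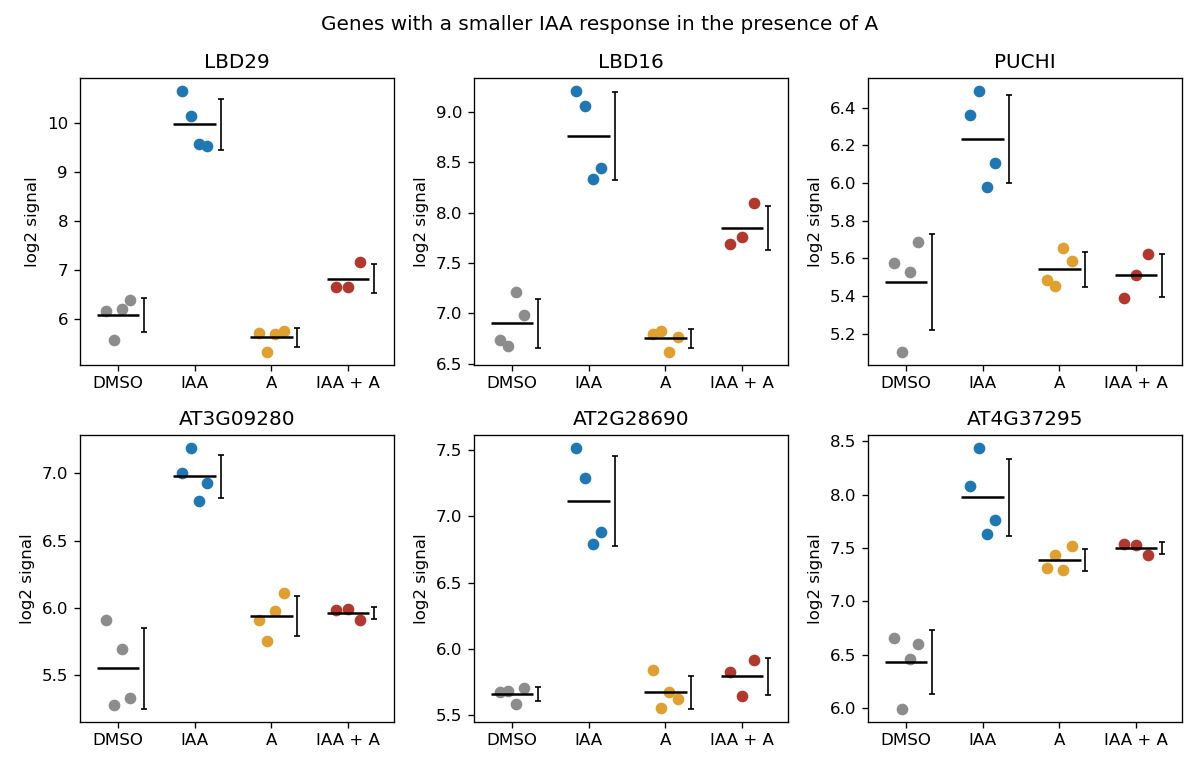
Log2 signal per array of 6 genes with a smaller IAA response in the presence of A (points; line, mean; bar, SD). LBD29 and LBD16 rise part of the way with IAA and A, while PUCHI, AT3G09280, AT2G28690 and AT4G37295 overlap between A and IAA with A, and AT4G37295 starts from a higher signal in A than in DMSO.

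WAG2 encodes a protein kinase that phosphorylates PIN auxin carriers. It read 6.60, 6.17, 6.16 and 6.03 in A and 7.50, 7.64 and 8.21 in IAA with A, a rise of 1.54 ± 0.26 (adjusted p = 0.00199). With IAA alone the difference was 0.86 and did not pass (adjusted p = 0.0768). Both groups with A started lower, since the DMSO arrays read 7.12 to 8.15 and the IAA arrays 8.25 to 9.11. The difference between both responses was not called (0.69, interval from -0.04 to 1.42, adjusted p = 0.999). PID2, the other named gene of the list of 18 for auxin transport, had 0.30 with A and did not pass.

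The other 8 of the 15 largest named rises were P1R3 and 7 loci without a symbol in the RefSeq gene table. Their rises ran from 2.00 for AT3G42800 to 2.46 for P1R3. P1R3 read 3.96 to 4.38 in A and 6.47 to 6.82 in IAA with A (adjusted p = 1.42e-05). AT3G28420 rose by 2.41 ± 0.25, AT3G50340 by 2.22 ± 0.18 and AT5G62280 by 2.20 ± 0.21. AT5G12050 rose by 2.21 ± 0.25, from A arrays at 8.43, 7.12, 8.16 and 7.87, of which array 2 was the lowest. AT1G65920 rose by 2.04 ± 0.18 and AT4G09890 by 2.02 ± 0.29. All of these also passed with IAA alone, by 1.53 to 2.17, and none passed the test of the difference between responses. AT3G42800, like WAG2, started lower with A: it read 5.77 to 6.35 in A against 6.80 to 7.26 in DMSO, and 8.04 to 8.15 in IAA with A against 8.25 to 9.05 in IAA.

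Genes of cell wall growth gave 1 call among the 6 named of 13 listed. XTH19, a xyloglucan endotransglucosylase/hydrolase, which cuts and rejoins wall xyloglucan, read 8.26, 8.18, 8.24 and 8.77 in A and 9.78, 9.55 and 9.71 in IAA with A. The rise was 1.32 ± 0.14, or 2.49-fold (adjusted p = 9.4e-06), against 2.26-fold without A. XTH18 and EXPA4, an expansin, passed with IAA alone, at 0.94 and 0.76, but not with A, at 0.62 (adjusted p = 0.369) and 0.57 (adjusted p = 0.331). All 6 differences with A were above 0, from 0.08 to 1.32, with a median of 0.60. Whether the responses of XTH18 and EXPA4 differ was covered by the interaction test, which called no gene of this list; 0 of the 6 had an unadjusted p under 0.05 in it.

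Further risers with a gene symbol, chosen for mention after their values were seen, were smaller. BZIP61, a bZIP transcription factor, read 8.01 to 8.52 in A and 9.47 to 9.76 in IAA with A, a rise of 1.37 ± 0.17 (adjusted p = 7.33e-05). PUB25, a U-box ubiquitin ligase, rose by 0.99 ± 0.14 (adjusted p = 0.000298). EXLA2, an expansin-like protein, rose by 0.79 ± 0.16 (adjusted p = 0.0149). CSLC04, which makes the glucan backbone of xyloglucan, rose by 0.61 ± 0.10 (adjusted p = 0.00136), from 10.20 to 10.58 in A to 10.94 to 11.05 in IAA with A. BZIP61, PUB25, EXLA2 and CSLC04 all passed with IAA alone as well.

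**Figure D3:**
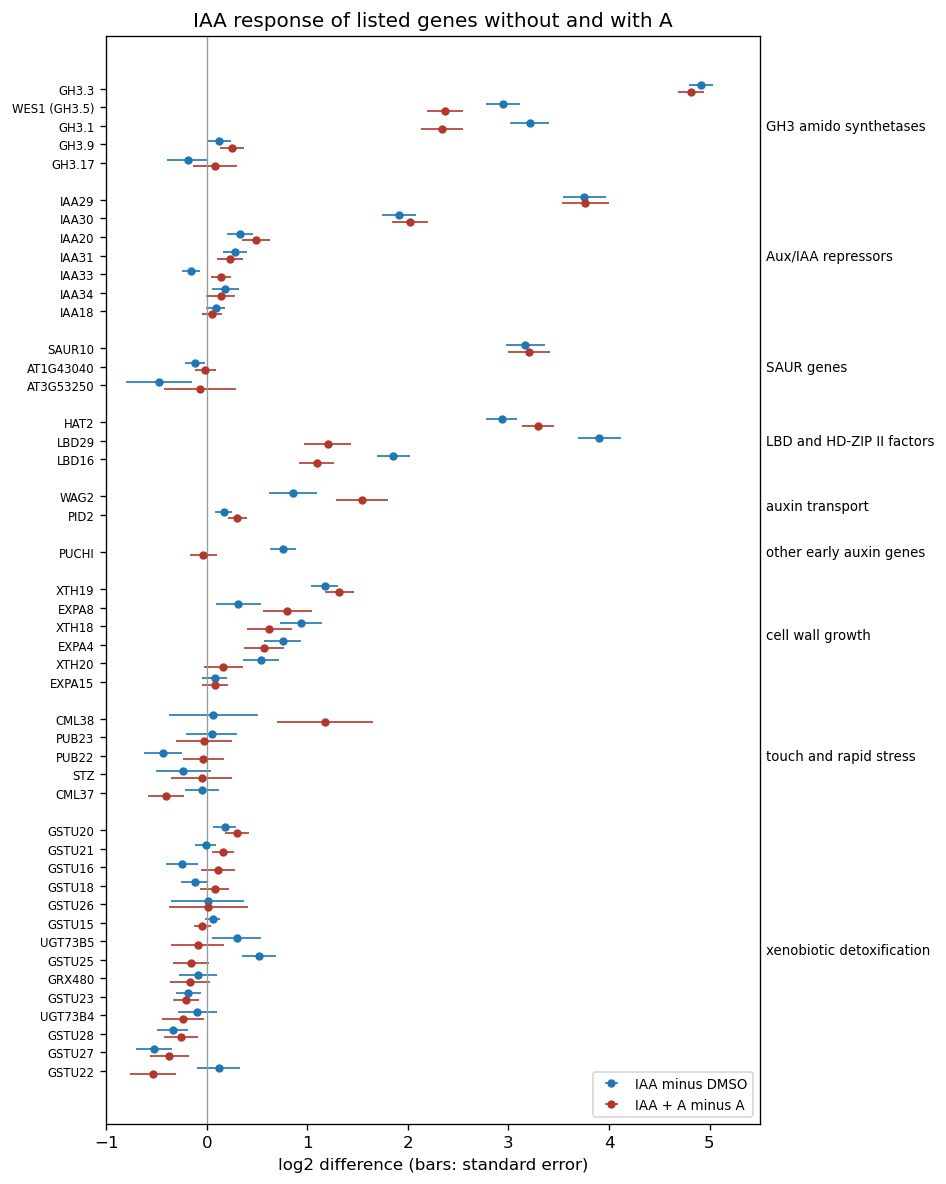
Log2 difference of IAA minus DMSO (blue) and of IAA with A minus A (red), with standard errors, for the named members of 9 gene lists. The GH3, Aux/IAA and SAUR genes that respond do so in both settings, the LBD genes and PUCHI lie lower with A, and the detoxification genes lie near 0 in both.

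The falls were fewer than the rises. There were 17 against 172, but 52 against 198 without DMSO 2, DMSO 4, A 2 and IAA with B 1, and 317 against 366 with array weights. Of the 17 probe sets that fell with A present, 13 had 1 gene, and none fell 2-fold. BGLU27, a beta-glucosidase, read 6.81, 6.93, 6.44 and 6.66 in A and 6.17, 5.82 and 5.85 in IAA with A, a fall with a difference of -0.76 ± 0.11 (adjusted p = 0.000511). In DMSO it read 4.66 to 4.95, so its signal in IAA with A stayed above the solvent control. AT4G20500 had -0.71 ± 0.12 (adjusted p = 0.00237) and AT5G22530 had -0.60 ± 0.12 (adjusted p = 0.0166). EXPA9, an expansin, read 8.59 to 8.91 in A and 8.11 to 8.22 in IAA with A, a difference of -0.59 ± 0.11 (adjusted p = 0.009). With IAA alone, BGLU27 had -0.04, AT4G20500 -0.32, AT5G22530 -0.05 and EXPA9 -0.05, and none of them passed. With IAA in the presence of B they had -0.13, -0.20, -0.09 and -0.07, which did not pass either. Nor did any of them pass the test of the difference between the responses with and without A.

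The other 6 named falls, AT2G44300, AT5G42680, AT5G24570, AT3G48550, AT1G80520 and AT1G12320, lay between -0.56 and -0.43. Of the 17, 7 had every A array above every DMSO array and 2 had every A array below, where 9.21% of all probe sets had A and DMSO arrays that did not overlap. These baselines use the same A arrays as the falls themselves. The count of falls depended on single arrays: it was 4 without array 1 of IAA with A, 7 without array 2 and 26 without array 3. EXPA9 did not pass without array 1 or array 2 of IAA with A (adjusted p = 0.0574 and 0.0624). BGLU27, AT4G20500 and AT5G22530 did not pass in the arrays of the contrast alone (adjusted p = 0.0682, 0.0933 and 0.0767). AT5G22530 did not pass without array 1, array 2 or array 4 of A (adjusted p = 0.112, 0.115 and 0.0705). Each of the other 6 lost its call without at least 4 of the 7 arrays in turn.

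IAA alone, measured on 8 arrays that the comparison with A does not share, changed 435 probe sets, 1.91% of those tested. Of these, 136 changed at least 2-fold, 0.598%, with 128 higher and 8 lower. With A present, 82 of the 136 passed in the same direction, 60.3%, where 0.831% of all probe sets passed. With the set taken at 1.5-fold, the share was 39.2%, 113 of 288. All 82 were rises, out of 128, while 0 of the 8 falls passed by limma and 0 had an unadjusted p under 0.05. The share was 66.7% without IAA array 2, whose label and experiment file disagree. It was 82.1%, 64 of 78, without IAA arrays 1 and 2, and 56.0%, 112 of 200, without IAA arrays 3 and 4, alternatives chosen after seeing the data.

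Over the 128 raised probe sets the median rise was 1.53 with IAA alone and 1.29 with A. Of the 136, 44 had less than 50% of their log2 response with A, and 50 of the 128 rises were larger with A. A set chosen for large values in IAA alone tends to show smaller values elsewhere. The 137 probe sets raised at least 2-fold by IAA in the presence of B, chosen on other arrays, had medians of 1.36 with IAA alone and 1.32 with A. That choice leaves out probe sets with a small rise with B, so it cannot show drops shared by A and B. Of the 128, the 46 that did not pass with A had a median of 0.62 with B. Across the 128 probe sets, which are not independent replicates and share their arrays, Pearson's r between both responses was 0.75 and Spearman's rho 0.67.

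The 8 falls of IAA alone had a median of -1.05 without A and -0.18 with A. Their differences with A ran from -0.48 to 0.28. Of the 54 probe sets of the 136 that did not pass with A, 22 had an unadjusted p under 0.05 and 16 passed with B.

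**Figure D4:**
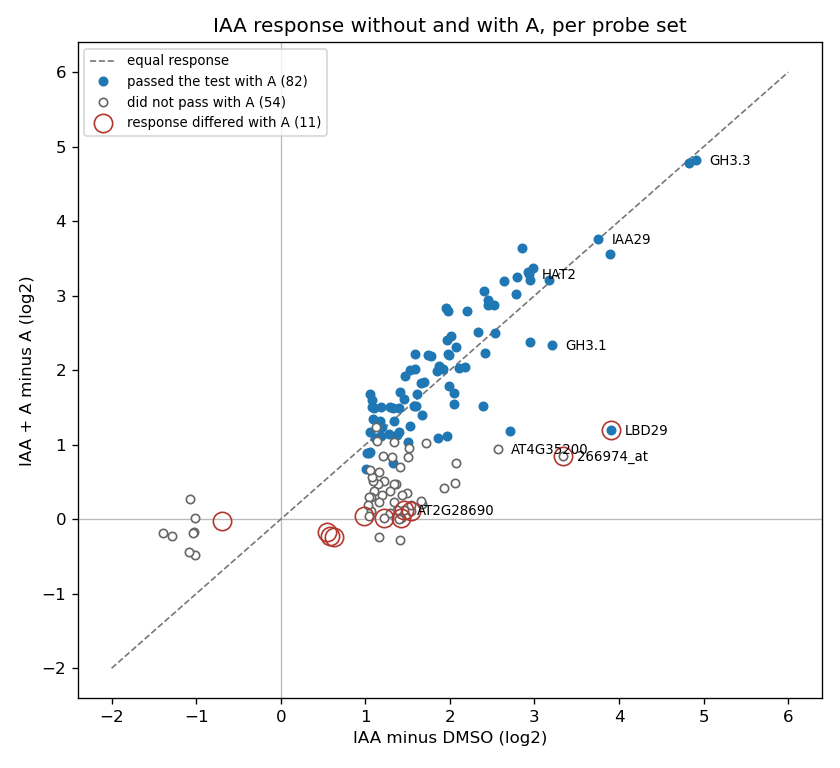
Each point is a probe set, with the log2 response to IAA without A on the horizontal axis and with A on the vertical axis, for the 136 probe sets that IAA alone changed at least 2-fold and for the 11 whose response differed (red rings). Most filled points follow the dashed line of equal response, and LBD29 and 266974_at lie far below it.

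The test of the difference between both responses called 11 probe sets, 0.0484% of those tested, and 1112 had an unadjusted p under 0.05. For 10 of the 11 the difference of responses was negative (lower below), and for 1, AT3G21680, it was positive (higher below). IAA alone lowered AT3G21680, by a difference of -0.69, against -0.03 with A, so its response too was smaller in size with A. The count of calls was 7 without IAA array 2, all lower. Without array 3 of IAA with A the balance turned: of 20 probe sets, 12 were higher and 8 lower. The 12 higher belong to the group given below, in which arrays 1 and 2 of IAA with A were high and array 3 lay near A. Besides LBD29, 3 of the 11 passed under every alternative in which they were tested, while the signal filter left these 3 out. The first of these, 266974_at, has no gene in the table used here. It read 4.97 to 5.40 in DMSO and 9.04, 9.16, 7.95 and 7.93 in IAA, but 4.56, 4.29, 4.57 and 4.63 in A and 5.35, 5.32 and 5.41 in IAA with A. Its difference of responses was -2.49 (adjusted p = 0.00118).

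AT3G09280 read 5.28 to 5.91 in DMSO and 6.80 to 7.18 in IAA. In A it read 5.91, 5.76, 5.98 and 6.11 and in IAA with A 5.98, 5.99 and 5.91, so the latter groups overlapped. The difference of responses was -1.40 (adjusted p = 0.00118). AT2G28690 read 5.59 to 5.70 in DMSO, 6.79 to 7.51 in IAA, 5.55 to 5.84 in A and 5.64 to 5.92 in IAA with A, with a difference of -1.34 (adjusted p = 0.00196). For both loci the response with A was within 0.15 of 0, at 0.02 and 0.12, against 1.42 and 1.46 without A. With B they had 0.14 and 0.05, which did not pass either.

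In 5 of the 11 cases the A arrays already lay beyond every DMSO array in the direction in which IAA alone moved the probe set. In 2, 266974_at and 253662_at, they lay beyond it in the opposite direction, and in 4 both groups overlapped, where 9.21% of all probe sets had A and DMSO arrays that did not overlap. These baselines use the same A and DMSO arrays as the responses. AT5G64250 read 8.94 to 9.13 in DMSO and 9.48 to 9.76 in IAA, but 11.26 to 11.63 in A and 11.15 to 11.37 in IAA with A. Its difference of responses was -0.80 (adjusted p = 0.0267). AT4G37295 read at most 6.66 in DMSO, 7.63 to 8.43 in IAA, 7.29 to 7.52 in A and 7.43 to 7.53 in IAA with A, with a difference of -1.43 (adjusted p = 0.0119). Probe set 257583_at read 5.98 to 6.34 in DMSO, 6.61 to 7.03 in IAA and 6.81 to 6.93 in A, with a difference of -0.86 (adjusted p = 0.0405). AT5G51380 read 6.08 to 6.21 in DMSO, 6.63 to 6.80 in IAA and 6.28 to 6.45 in A, with a difference of -0.72 (adjusted p = 0.0405). AT3G21680 was the case with a positive difference of responses: IAA alone lowered it by a difference of -0.69, against -0.03 with A. Both A, at 3.96 to 4.30, and IAA with A, at 4.02 to 4.09, lay as low as IAA, at 3.98 to 4.37.

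The remaining 2 were 247869_at, at -1.20 (adjusted p = 0.0267), and 253662_at, at -0.95 (adjusted p = 0.0267). Of the 7 that did not pass under every alternative, AT4G37295 lost its call in 2 and the others in 9 to 16, those chosen after seeing the data aside. Across all probe sets the count was 5 without any 1 of IAA array 1, A array 1 or array 1 of IAA with A, and 6 or 7 without DMSO array 2 or 3, A array 3 or array 2 of IAA with A. It went to 26 without IAA array 3, to 23 without IAA array 4, to 20 without array 3 of IAA with A and to 19 without DMSO array 1.

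Further genes of the 136 had large drops that did not pass. AT4G35200 read 4.40 to 5.65 in DMSO and 7.20 to 8.07 in IAA, but 3.89 to 4.30 in A and 5.03 to 5.10 in IAA with A. Its difference with A was 0.94 (adjusted p = 0.0558), against 2.57 without A. The former passed under quantile scaling (adjusted p = 0.033), in the arrays of the contrast alone (0.00146), with array weights (0.00888) and without DMSO 2, DMSO 4, A 2 and IAA with B 1 (0.0248). The difference of responses was -1.63 (adjusted p = 0.0508) and passed in 6 of 21 alternatives. AT5G65320 had 0.25 with A and 1.66 without, with a difference of -1.41 (adjusted p = 0.0508) that passed in 7 of 21. AT1G64405 had 0.49 with A and 2.06 without, and AT4G35210 had 0.42 and 1.93 (adjusted p for the difference = 0.108 and 0.132), which passed in 3 and 1 of 21. AT1G64405 started lower with A, at 4.35 to 4.87 in A against 5.32 to 6.33 in DMSO. AT4G35210 read 3.88 to 4.03 in A, against 3.85 to 4.99 in DMSO, where the lowest signal on any array was 3.02. AT4G37290 read 9.69 to 10.66 in A, above every DMSO and IAA array, and had -0.28 with A against 1.41 without (adjusted p for the difference = 0.258), which passed in 1 of 22, array weights. With IAA in the presence of B, AT5G65320 had 0.05, AT1G64405 0.26 and AT4G37290 -0.32, and none of these passed. AT4G35200 had 1.27 and AT4G35210 1.22 there, and both passed (adjusted p = 0.00531 and 0.0128).

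Of the 189 probe sets that passed with A, 136 also passed with IAA alone in the same direction, which is 72.0% of the 189 and 31.3% of the 435. The other 53, 41 higher and 12 lower, passed with A only. None of the 53 passed limma's test of the difference between responses, and all shared their sign with IAA alone. In that test 26 of the 53 had an unadjusted p under 0.05, against 1112 of all 22746 probe sets. The 53 were chosen for passing with A and not without, on arrays that this test also uses. That choice favours small p-values in it, so the 26 do not show larger responses with A. The 41 rises had a median of 0.67 with A and 0.35 without, a gap that the same choice favours. After WAG2, the largest with 1 gene were AT1G23340, at 0.94, and TRM25, at 0.91. TRM25, of the family that recruits the TON1 protein to microtubules, read 6.20 to 6.75 in A and 7.20 to 7.59 in IAA with A (adjusted p = 0.00065), against 0.35 without A, and its difference of responses was 0.57 (adjusted p = 0.817).

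AT3G19680 rose by 0.78 ± 0.13 (adjusted p = 0.00247), AT3G15310 by 0.81 ± 0.16 (adjusted p = 0.0125) and AT1G77640 by 0.77 ± 0.16 (adjusted p = 0.0132). TRM25 and AT3G19680 passed under every alternative in which they were tested. AT3G15310 did not pass without array 1 of IAA with A (adjusted p = 0.149), nor AT1G77640 without A array 1 or array 1 or 2 of IAA with A (adjusted p = 0.0541, 0.0687 and 0.0768). AT1G23340 did not pass without A array 2, A array 4, or array 1 or 3 of IAA with A (adjusted p = 0.0814, 0.0849, 0.0896 and 0.159).

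AT1G03610 belonged to a group of genes that were high in 2 of the 3 arrays of IAA with A. It read 8.03, 8.08, 7.99 and 7.84 in A and 9.18, 9.27 and 8.10 in IAA with A, and passed at 0.87 ± 0.20 (adjusted p = 0.0427) through arrays 1 and 2. Its adjusted p was 0.384 and 0.406 without array 1 or 2, and 0.0645 to 0.127 without any 1 of the 4 A arrays. CML38, a calmodulin-like protein known from touch and stress responses, read 7.73, 7.62, 7.45 and 8.10 in A and 9.62, 9.81 and 7.26 in IAA with A. It did not pass (1.18 ± 0.48, adjusted p = 0.495), but did without array 3 (2.00, adjusted p = 0.0101).

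Without array 3 of IAA with A, 14 probe sets passed the test against the response without A or with B that did not pass the former on all arrays. In 13 of them arrays 1 and 2 lay above every A array, and in all 14 array 3 lay within the A arrays or within 0.3 of them. This follows in large part from choosing them by the removal of array 3. Over all probe sets, arrays 1 and 2 lay above every A array in 7.28%, and array 3 lay within the A arrays or within 0.3 of them in 97.9%. AT3G10040 read 6.34, 5.83, 6.29 and 6.18 in A and 9.79, 9.86 and 6.11 in IAA with A. AT5G10040 read 3.92 to 4.79 in A and 6.74, 7.14 and 4.20 in IAA with A. AT4G10270 read 6.65 to 7.84 in A and 10.62, 10.83 and 7.41 in IAA with A. The exception, BHLH101, ran the other way, with 4.88, 4.92 and 5.68 against 5.56 to 5.98 in A. What set array 3 apart from arrays 1 and 2 was not tested. GH3.3, IAA29, HAT2 and SAUR10 passed under every alternative in which they were tested, those without array 3 included; the signal filter left out SAUR10.

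**Figure D5:**
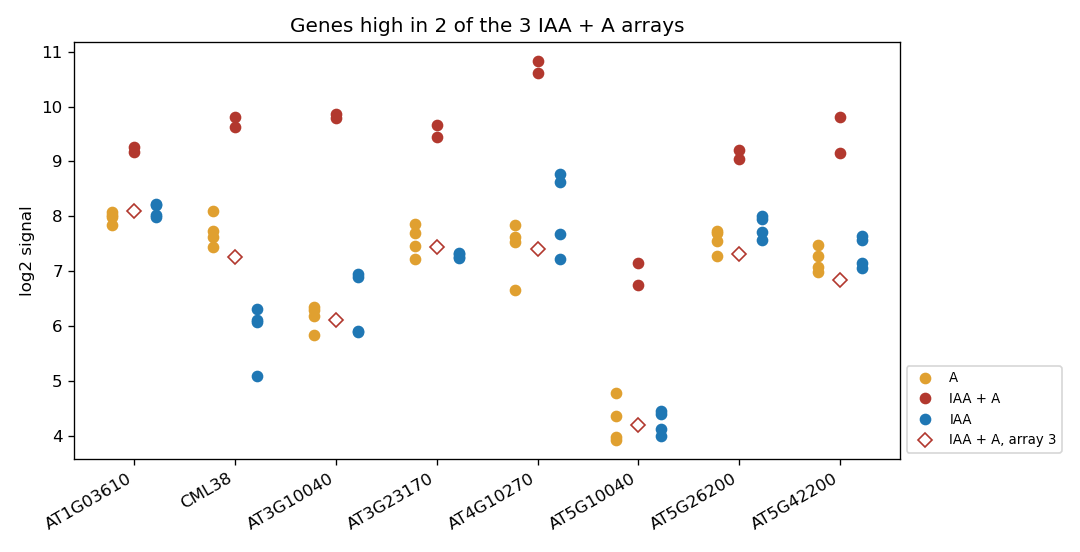
Log2 signal per array in A, IAA with A and IAA for CML38 and the 7 named genes higher with IAA and A that passed a test of differing responses only without array 3 of IAA with A. Arrays 1 and 2 of IAA with A (filled red) lie above all A arrays, and array 3 (open diamond) lies among or near the A arrays.

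None of the named detoxification genes passed the test for a change with IAA in the presence of A. Of 14 named genes of xenobiotic detoxification, of 36 listed, 0 passed with A by limma and 2 had an unadjusted p under 0.05, with differences from -0.54 to 0.30, a median of -0.12 and a lowest adjusted p of 0.478. In 5 of the 14, 35.7%, every A array lay above every DMSO array, where 5.43% of all probe sets had that order. Of these, GRX480, a glutaredoxin that interacts with TGA transcription factors, read 10.43, 10.70, 10.01 and 10.30 in A and 10.22, 10.43 and 9.94 in IAA with A, against 5.44 to 5.82 in DMSO. UGT73B5, a glucosyltransferase, read 10.63 to 11.27 in A, 10.68 to 11.03 in IAA with A and 5.92 to 7.49 in DMSO. In both genes the groups with A overlapped.

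Genes of stress and heat did not pass either. Of the 5 named genes of touch and rapid stress, of 10 listed, 0 passed by limma and 2 had an unadjusted p under 0.05, with a lowest adjusted p of 0.495. CML37, a calmodulin-like protein, read 8.03 to 8.26 in A, 7.59 to 7.84 in IAA with A and 3.21 to 3.98 in DMSO, and its difference of -0.40 did not pass (adjusted p = 0.581). STZ, a zinc finger repressor also called ZAT10, read 11.31 to 11.61 in A and 11.25 to 11.48 in IAA with A. Neither of the 2 named heat shock genes, of 22 listed, passed, and 0 had an unadjusted p under 0.05. Hop3, a co-chaperone, had -0.39 (adjusted p = 0.821) and AT5G48570 had -0.17 (adjusted p = 0.956).

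Of 2 named genes of the cytokinin list and 4 of the clock and cold list, 0 passed by limma and 0 had an unadjusted p under 0.05, with lowest adjusted p-values of 0.912 and 0.856. The clock and cold genes had a median of -0.36. Array 2 of A stood apart in COR27, which read 4.48, 6.35, 4.44 and 4.26 in A and 4.12 to 4.21 in IAA with A. COR27 read 4.20 in DMSO array 4, against 6.23 to 6.73 in IAA. AT1G07050 read 4.05 in DMSO array 4, against 6.46 to 7.28 in the other DMSO arrays and 6.06 to 6.56 in IAA. In A it read 4.10 to 4.19 in arrays 1, 3 and 4 and 5.23 in array 2. In IAA with A it read 3.77 to 3.99. Array 1 read 4.37 in B and 3.86 in IAA with B, against 5.9 to 6.5 in their other arrays. What split the arrays, and whether it bears on baselines or responses, was not tested. Over all 22746 probe sets, 1828 had an unadjusted p under 0.05. The lists of ARF factors, the auxin receptor machinery, ethylene synthesis, brassinosteroid and gibberellin, and indole and auxin synthesis had no member paired with 1 gene in the table and are not analysed here.

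The closest comparison in the series is IAA in the presence of B, at the same doses and time, from 6 other arrays. It changed 281 probe sets, 1.24% of those tested, 260 higher and 21 lower. Of the 189 that passed with A, 153 passed with B in the same direction, which is 81.0% of the 189 and 54.4% of the 281. The test of the difference between the IAA responses with A and with B called 0 probe sets by limma, 0%, while 782 had an unadjusted p under 0.05. A difference that misses the threshold does not show that both compounds act alike.

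GH3.3 differed between the responses with A and with B by 0.36, with an unadjusted 95% interval from -0.03 to 0.75. For IAA29 the difference was -0.43, from -1.14 to 0.29, and for HAT2 -0.42, from -0.92 to 0.08. LBD29 had -1.19, from -1.90 to -0.47: its arrays read 7.92 to 8.44 in IAA with B against 6.64 to 7.15 in IAA with A. LBD16 had -0.81, from -1.34 to -0.27, and 266974_at had -1.74, from -2.44 to -1.04. With only the 13 arrays of these 4 groups in the model, 2 probe sets passed, 266974_at (adjusted p = 0.000623) and SETH6, at -0.84 (adjusted p = 0.0205). Without array 3 of IAA with A, 11 passed, 10 of them higher with A. These 11 are among the 14 probe sets of the array 3 group, which were chosen in part by this same test.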

How the data were processed

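The authors deposited log2 signals, 1 per probe set and array, as their range (3.02 to 13.9) shows; how they summarised and scaled the probes was not found in the labels or file headers. Array medians ran from 7.17 to 7.25, and no transformation was added. Of 22810 probe sets, 64 controls were left out. Of the 22746 tested, a supplied table gave 1 gene for 13513, several for 503 and none for 8730. Symbols came from the RefSeq gene table for TAIR10.1, which matched 13508. The 21 arrays entered a single limma 3.58.1 model (R 4.3.3) of group means with an intensity trend, two-sided tests and Benjamini-Hochberg adjustment. The code was first run on simulated data with independent noise. Such data lack the deviations of whole arrays described above, so that run does not cover them. The difference between responses is the interaction of IAA with the compound.

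Named genes are, among probe sets with 1 gene, the 15 largest rises and 10 largest falls with A, listed auxin genes that passed, up to 4 members of other lists, the 8 largest drops, the 8 largest IAA responses and the 8 largest calls made with A only. Up to 2 members stand for a list without calls, and every interaction call is given. All members, lists and rules were chosen with earlier results of these data known. The alternatives were quantile scaling, a signal filter, the arrays of the contrast only, no trend, array weights, a replicate block, and leaving out arrays. Same-numbered arrays of A and IAA with A deviated with correlations of -0.30, 0.37 and 0.50, so the numbers were not taken as pairs. The number of arrays limits the precision.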

Additional observations from a re-analysis of the deposited data

Results flagged for a closer look

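The IAA response differed with A present, by the interaction test, for 11 probe sets. The differences of the log2 responses were -2.70 for LBD29 (limma, adjusted p = 0.00118), -2.49 for 266974_at (0.00118), -1.43 for AT4G37295 (0.0119), -1.40 for AT3G09280 (0.00118), -1.34 for AT2G28690 (0.00196), -1.20 for 247869_at (0.0267), -0.95 for 253662_at (0.0267), -0.86 for 257583_at (0.0405), -0.80 for AT5G64250 (0.0267), -0.72 for AT5G51380 (0.0405) and 0.66 for AT3G21680 (0.0405).

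In 8 of the 192 groups of 4 arrays examined for named genes, 1 array lay far from the other 3, where chance gives about 1 in 20. Array 2 of A accounted for 5 of them. It read 6.35 for COR27, against 4.26 to 4.48 in the other A arrays, and 5.23 for AT1G07050, against 4.10 to 4.19. For EXPA18, an expansin of root hairs, it read 8.82, against 7.71 to 7.81. For AT5G24570 it read 10.5, against 10.1 in each of the other 3. For AT3G15310 it read 3.92, against 4.40 to 4.49. Array 4 of A read 8.77 for XTH19, against 8.18 to 8.26, and 5.98 for RR16, against 6.42 to 6.47. DMSO array 4 read 6.08 for AT5G51380, against 6.21 in each of the other 3. XTH19 kept its call without array 4 of A, whereas AT5G24570 lost its call without array 2.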

How the results depend on the processing

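The count of probe sets changed by IAA with A kept within 1.5 times of 189 under every alternative but array weights, which gave 683, with 366 higher and 317 lower; the cause was not tested. It was 250 without DMSO 2, DMSO 4, A 2 and IAA with B 1, with 198 higher and 52 lower, and 135 in the arrays of the contrast alone, with 131 higher and 4 lower. Leaving out 1 array at a time gave 133 to 187. The calls themselves changed as well. The replicate block gave 186, of which 167 were among the 189. The arrays of the contrast alone kept 122 of the 189. Leaving out 1 array at a time kept 133 to 170. Without array 3 of IAA with A, 186 passed, but only 133 of these were among the 189. The interaction count of 11 was 5 in the upper 60% of probe sets by signal, which tests fewer, 6 in the arrays of the contrast alone, 21 with array weights, 19 with the replicate block, 5 without the same 4 arrays, and 5 to 26 with 1 array left out. With IAA 1 and 2 left out it was 7, and with IAA 3 and 4 left out 50, both added after seeing the data. The difference between the responses with A and with B was called for 2 probe sets in the arrays of the contrast alone and for 0 to 11 with 1 array left out. The share of the IAA-responsive set that passed with A was 39.2%, 113 of 288, when the set was taken at 1.5-fold, 77.5% when selected with B, and 54.4% to 67.5% with 1 array left out. Selecting with B leaves out probe sets with a small rise with B, which raises the share if A and B lower the same responses. For single named genes no direction of a called difference reversed. Calls were lost in 69 of the 867 recomputed values and gained in 7. The 867 include named genes without a call, which had none to lose. Apart from LBD29, the losses fell on named falls and on rises called with A only. A batch block was not run, since the deposited experiment files give no hybridisation or scan date and 1 chip lot.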
